A study of Mus musculus with 6 samples.

Results

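The genes described here encode the contractile apparatus of striated muscle and the machinery that excites it: actins, myosins, troponins, tropomyosins, Z-disc proteins, calcium-handling proteins of the sarcoplasmic reticulum, heart-secreted factors and acetylcholine receptor subunits. Of 46 genes chosen as members, 46 were measured by a probe set (the group of array probes summarised into 1 value) that the platform annotation assigns to that gene alone, among 19938 genes in all. Members were divided by the muscle that mainly uses the isoform into 19 heart-type, 18 skeletal-type and 9 shared genes. RNA came from dissected mandibular arches, the embryonic precursor of the lower jaw, of C57BL/6 mice at E9.5 (embryonic day 9.5). Tbx1+/+ embryos (wild type) and Tbx1-/- embryos (Tbx1 null) gave 3 Affymetrix arrays each. Tbx1 is a transcription factor of the T-box family that acts in pharyngeal development. The comparison asks which arch transcripts depend on it. Arches of 3 embryos per genotype were pooled, and the labels do not say whether each array had a pool of its own or describe the null allele. The p-values therefore measure the spread between these arrays, which may be technical in part.

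In a sarcomere, myosin heads of the thick filament pull on actin of the thin filament, and troponin and tropomyosin on the thin filament release that interaction when calcium rises. Heart and skeletal muscle build the same machine from different isoforms, although embryonic muscle of either kind also uses isoforms that the adult keeps for the other. The arch holds a core of mesoderm from which the jaw muscles form, and it lies next to the outflow region of the heart, whose muscle is added from pharyngeal mesoderm.

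Levels are the deposited log2 values, so a difference of 1 is a doubling. Changes are Tbx1 null minus wild type, from limma (a linear model that shares variance information between genes), with p-values adjusted by Benjamini-Hochberg over all genes. Tbx1 itself was at 11.64, 11.36 and 11.31 on wild-type replicates 1, 2 and 3 and at 9.48, 9.39 and 9.63 on the Tbx1 null replicates (log2 change -1.94, SE 0.10, limma adjusted p = 0.000684), so the arrays bore out their labels. Array medians lay between 7.98 and 8.04, and the median SD within a genotype was 0.0728. No background probes were available, and 34 of the 46 members lay below the median level of all genes (8.55), 6 of them below the first quartile (6.81): Myl2, Casq2, Bmp10, Neb, Myh3 and Myl1. Whether such dim probe sets read transcript or background is not known. Y-linked transcripts had a mean log2 level of 5.73 on Tbx1 null replicate 3 against 9.58 and 9.28 on replicates 1 and 2, and of 8.57, 9.07 and 9.85 on the wild-type replicates. Tbx1 null replicate 3 thus did not carry the same pooled RNA as Tbx1 null replicates 1 and 2. For the other arrays these values, from 3 Y-linked genes, do not decide the question. The part of this difference in the values of the members was not tested. Among defining markers of arch neural crest mesenchyme, 14 of 14 were measured, with wild-type mean levels from 8.68 to 12.86.

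None of the 46 members passed a limma adjusted p of 0.05, against 32 genes (0.16%) of all tested. The smallest member value was 0.113, for Smyd1. With an unadjusted limma p under 0.05, 9 members had higher and 4 had lower values in Tbx1 null, where 5.5% of all genes were higher and 3.94% lower. The 9 higher members were Actc1, Myl7, Myl4, Smyd1, Tnnt2, Ttn, Tnni1, Pln and Myh6. The 4 lower ones were Chrna1, Vgll2, Tpm2 and Tnnt1. By class, these were 6 higher and 0 lower of 19 heart-type members, 1 higher and 3 lower of 18 skeletal-type members, and 2 higher and 1 lower of 9 shared members.

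**Figure D1:**
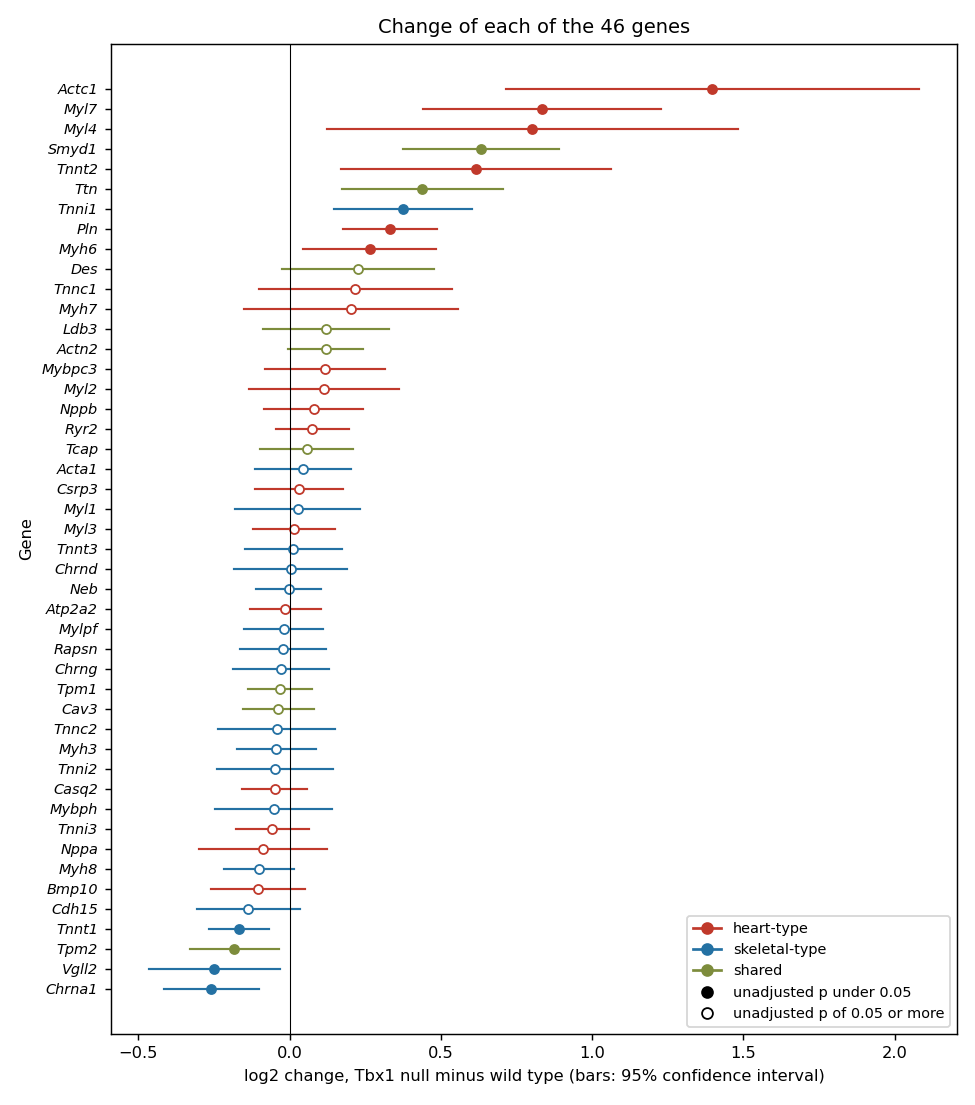
The log2 change of each of the 46 genes (Tbx1 null minus wild type) is plotted with its 95% confidence interval from limma, coloured by class and filled where the unadjusted p is under 0.05. Actc1 stands at the top with 1.40 and Chrna1 at the bottom with -0.26, and the heart-type genes without a filled point lie between -0.10 and 0.22.

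Promoter sequences are shown for the members with the largest increases, Actc1 and Myl7 (heart-type), and the largest decrease, Chrna1 (skeletal-type). They were picked by change and not by motif, among members with an unadjusted p under 0.05 and a single start in the table. The sequences are the 250 bases before the start in RefSeq's GRCm38.p6 table, 5′ to 3′ on the gene's strand. Actc1 lies at chr2:114052876-114053125 (minus strand), Myl7 at chr11:5898783-5899032 (minus strand) and Chrna1 at chr2:73580339-73580588 (minus strand). In the heart-type genes capitals mark the CArG box, the site of serum response factor, and the MCAT element CATTCC, the site of TEAD factors. In Chrna1 capitals mark the E-box CANNTG, the site of myogenic bHLH factors, which was not marked in the heart-type sequences. An unmarked E-box does occur in the Myl7 sequence, and none in that of Actc1. The Chrna1 sequence holds no CArG box or MCAT.
Actc1: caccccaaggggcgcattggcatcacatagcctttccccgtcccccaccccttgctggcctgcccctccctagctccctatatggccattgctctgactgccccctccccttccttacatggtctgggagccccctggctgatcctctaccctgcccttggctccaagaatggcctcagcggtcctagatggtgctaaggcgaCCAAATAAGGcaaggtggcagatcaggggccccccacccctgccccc
Myl7: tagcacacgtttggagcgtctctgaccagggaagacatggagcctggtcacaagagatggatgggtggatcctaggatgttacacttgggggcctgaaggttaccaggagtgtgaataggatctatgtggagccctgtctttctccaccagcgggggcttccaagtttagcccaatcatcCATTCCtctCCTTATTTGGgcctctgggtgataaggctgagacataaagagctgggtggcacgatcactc
Chrna1: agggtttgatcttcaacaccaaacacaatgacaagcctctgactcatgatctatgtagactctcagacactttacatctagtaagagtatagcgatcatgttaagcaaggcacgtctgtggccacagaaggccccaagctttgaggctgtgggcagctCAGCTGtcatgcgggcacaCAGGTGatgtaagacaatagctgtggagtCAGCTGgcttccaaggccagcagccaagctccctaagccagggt

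Matches were sought on both strands of these 250-base windows. Counted back from the start, a CArG box began at -47 in Actc1 and at -61 in Myl7, where the MCAT began at -70 and did not overlap it. Chrna1 held 3 E-boxes. Of the members, 39 of 46 had promoters in the table, with 45 windows. A CArG box was in 6 of these (13.3%) and in 1.47% of all 32851 windows. The windows were those of Actc1, Myl7, Myl3, Acta1 and both starts of Ldb3, whose windows belong to 1 gene. A MEF2 site, which can share AT-rich bases with a CArG box, was in 4 member windows (8.89%, against 2.92% of all): Ttn, Mybpc3, Casq2 and Myh8. The MCAT element was in 24.4% against 12.6%, and the short E-box in 86.7% against 66.2%. The T-box half-site GGTGTGA was in 2 member windows, Nppa and Tnni3 (4.44%, against 3.33% of all). A match describes the letters only. CArG boxes stood before Actc1 and Myl7, with changes of 1.40 and 0.84. Neither change passed over all genes (limma adjusted p = 0.163 and 0.148). The boxes also stood before Ldb3, with a change of 0.12, and before genes with changes near 0 (Acta1 at 0.04, Myl3 at 0.01).

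Actc1 encodes cardiac alpha-actin, the thin-filament actin of the heart, which embryonic skeletal muscle uses too. Its level (probe set 10485982, Entrez gene 11464) was 10.05, 9.38 and 9.38 on wild-type replicates 1, 2 and 3 and 10.46, 10.91 and 11.62 on Tbx1 null replicates 1, 2 and 3. All Tbx1 null arrays were above all wild-type arrays, with wild-type replicate 1 and Tbx1 null replicate 1 nearest each other. The log2 change was 1.40 (95% confidence interval 0.71 to 2.08), or 2.63-fold. This was the largest increase of any of the 19938 genes. Its spread was large as well, with a pooled SD of 0.49 that exceeded that of 99.9% of genes, and limma's adjusted p was 0.163. Acta1, the skeletal alpha-actin, had a change of 0.04 (SE 0.07) from a wild-type level of 8.58. The striated and smooth muscle actins are near-identical in coding sequence, so a probe set of one may read another. Acta2, the smooth muscle actin, had a change of 1.09, and how far these probe sets share signal was not tested.

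Of the thick-filament genes of heart muscle, 7 of 7 lay above 0, as did 46.5% of all genes. Of these 7, 3 were higher at an unadjusted p under 0.05, as were 5.5% of all genes. Myl7 encodes the atrial regulatory light chain of myosin, present in the whole early heart tube. It was at 8.52, 8.47 and 8.62 on the wild-type replicates and at 8.997, 9.34 and 9.77 on the Tbx1 null replicates, without overlap (1.78-fold, log2 change 0.84, SE 0.17, limma adjusted p = 0.148). The wild-type arrays were close together and the Tbx1 null arrays spread over 0.77. Myl4, the atrial essential light chain that fetal skeletal muscle shares, was at 10.22, 9.36 and 9.48 in wild type and at 9.998, 10.44 and 11.03 in Tbx1 null. Here wild-type replicate 1 was above Tbx1 null replicate 1, so the genotypes overlapped (change 0.80, SE 0.29, limma adjusted p = 0.435). Myh6, the atrial (alpha) myosin heavy chain, was at 7.34, 7.34 and 7.07 in wild type and at 7.40, 7.48 and 7.66 in Tbx1 null, a difference of 0.26 without overlap.

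In the other thick-filament genes of this class the genotypes overlapped. Myh7, the slow and ventricular (beta) heavy chain that neighbours Myh6, was at 8.83, 8.61 and 8.69 in wild type and at 8.57, 8.94 and 9.23 in Tbx1 null. Myl2, the ventricular regulatory light chain, was between 6.67 and 6.76 in wild type and at 6.64, 6.77 and 7.10 in Tbx1 null. In both genes Tbx1 null replicate 1 was below every wild-type array and replicate 3 above every one. Mybpc3, the cardiac myosin-binding protein C, had a change of 0.12 (SE 0.09), and Myl3, the slow and ventricular essential light chain, of 0.01 (SE 0.06). Myh6 and Myh7 are close paralogues, so their probe sets may share signal.

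Among cardiac troponins, Tnnt2, the troponin T that anchors the complex to tropomyosin, was at 8.71, 8.68 and 8.54 in wild type and at 8.83, 9.23 and 9.71 in Tbx1 null (1.53-fold, change 0.62, SE 0.19, limma adjusted p = 0.360). The genotypes did not overlap, but Tbx1 null replicate 1 was close to the wild-type arrays. Tnnc1, the calcium-binding subunit of heart and slow muscle, was at 7.77, 7.75 and 7.56 in wild type and at 7.61, 7.92 and 8.20 in Tbx1 null, with overlap (change 0.22). Tnni3, the inhibitory subunit of the mature heart, had a change of -0.06 (SE 0.05). Tnni1, the slow skeletal inhibitory subunit, which the embryonic heart uses before Tnni3, was at 8.24, 8.0 and 8.02 in wild type and at 8.33, 8.39 and 8.65 in Tbx1 null. It was the only skeletal-type member that was higher at an unadjusted p under 0.05 (change 0.37, SE 0.10, limma adjusted p = 0.258).

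Of 4 calcium-handling genes of heart muscle, 1 was higher at an unadjusted p under 0.05, as were 5.5% of all genes. Pln encodes phospholamban, the inhibitor of the calcium pump of the sarcoplasmic reticulum. It was at 6.77, 6.64 and 6.70 in wild type and at 7.07, 6.91 and 7.13 in Tbx1 null, without overlap (change 0.33, SE 0.07, limma adjusted p = 0.147). Its Tbx1 null arrays stood closer together than those of Actc1 or Tnnt2. Atp2a2, the pump that phospholamban inhibits, also made in non-muscle cells, was at 12.83 in wild type and had a change of -0.01 (SE 0.05). Ryr2, the calcium release channel, and Casq2, the calcium store protein calsequestrin, had changes of 0.08 (SE 0.05) and -0.05 (SE 0.05).

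The factors secreted by chamber muscle had changes near 0, of either sign. Nppa and Nppb, the neighbouring natriuretic peptide genes, had changes of -0.09 (SE 0.09) and 0.08 (SE 0.07), and Bmp10, a growth factor of trabecular muscle, of -0.10 (SE 0.07) at a dim level of 5.90. Csrp3, a LIM protein of the Z-disc, had a change of 0.03 (SE 0.06). In all, 13 of 19 heart-type members had an unadjusted p of 0.05 or more, with changes from -0.10 to 0.22 and a median of 0.03.

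Shared members that build and hold the sarcomere gave 2 with higher values. Smyd1, a muscle lysine methyltransferase needed for myosin assembly, was at 7.87, 7.61 and 7.83 in wild type and at 8.19, 8.41 and 8.60 in Tbx1 null. The genotypes did not overlap (1.55-fold, change 0.63, SE 0.11, limma adjusted p = 0.113). Ttn, the giant spring protein titin, was at 7.11, 7.03 and 6.95 in wild type and at 7.22, 7.47 and 7.71 in Tbx1 null (change 0.44, SE 0.11, limma adjusted p = 0.258). Again the Tbx1 null arrays were all above the wild-type arrays. None of these values passed over all genes. The other Z-disc and linker genes, Actn2 (alpha-actinin), Des (desmin, the muscle intermediate filament), Ldb3 and Tcap (titin-cap), had changes of 0.12, 0.23, 0.12 and 0.06, so 5 of 5 genes of this role lay above 0.

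Both tropomyosins lay below 0, as did 10673 of all 19938 genes. Tpm2 (beta-tropomyosin) was at 10.001, 10.11 and 10.16 in wild type and at 9.94, 9.81 and 9.97 in Tbx1 null, all of them below the wild-type arrays (change -0.18, SE 0.06, limma adjusted p = 0.413). Tpm1 (alpha-tropomyosin), a bright gene at 12.57 in wild type, had a change of -0.03 (SE 0.05). Both are also made in non-muscle cells. Cav3, the muscle caveolin, had a change of -0.04 (SE 0.05).

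Of 18 skeletal-type members 14 had an unadjusted p of 0.05 or more, and 15 lay below the median level of all genes. Chrna1, the alpha subunit of the muscle acetylcholine receptor, was at 7.03, 7.10 and 6.91 in wild type and at 6.66, 6.84 and 6.75 in Tbx1 null, without overlap (change -0.26, SE 0.07, limma adjusted p = 0.258). Values of the other receptor genes lay near 0: Chrnd (delta subunit), Chrng (the embryonic gamma subunit) and Rapsn (rapsyn, which clusters the receptor) had changes of 0.00, -0.03 and -0.02, with SEs of 0.06 to 0.08. Tnnt1, the slow troponin T, was at 8.06, 8.01 and 8.004 in wild type and at 7.89, 7.84 and 7.84 in Tbx1 null. This difference was small but the arrays were tight (change -0.17, SE 0.04, limma adjusted p = 0.2499). Vgll2, a cofactor of TEAD factors in the skeletal muscle lineage, was at 11.72, 11.43 and 11.52 in wild type and at 11.27, 11.19 and 11.46 in Tbx1 null, with Tbx1 null replicate 3 inside the wild-type range (change -0.25, SE 0.09, limma adjusted p = 0.441).

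The remaining 14 skeletal-type genes had changes between -0.14 and 0.04 and a median of -0.02. Among them Cdh15, the M-cadherin of myoblasts, had -0.14 (SE 0.07) and Myh8, the perinatal myosin heavy chain, -0.10 (SE 0.05), with all Tbx1 null arrays of Myh8 below the wild-type arrays. Myh3, the embryonic heavy chain, had -0.04, the fast light chains Myl1 and Mylpf 0.03 and -0.02, and the myosin-binding protein Mybph -0.05. The fast troponins Tnnt3, Tnnc2 and Tnni2 had 0.01, -0.04 and -0.05, and Neb (nebulin, the thin-filament ruler) had 0.00. With many of these genes dim, a difference in them may not have been detectable on these arrays.

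**Figure D2:**
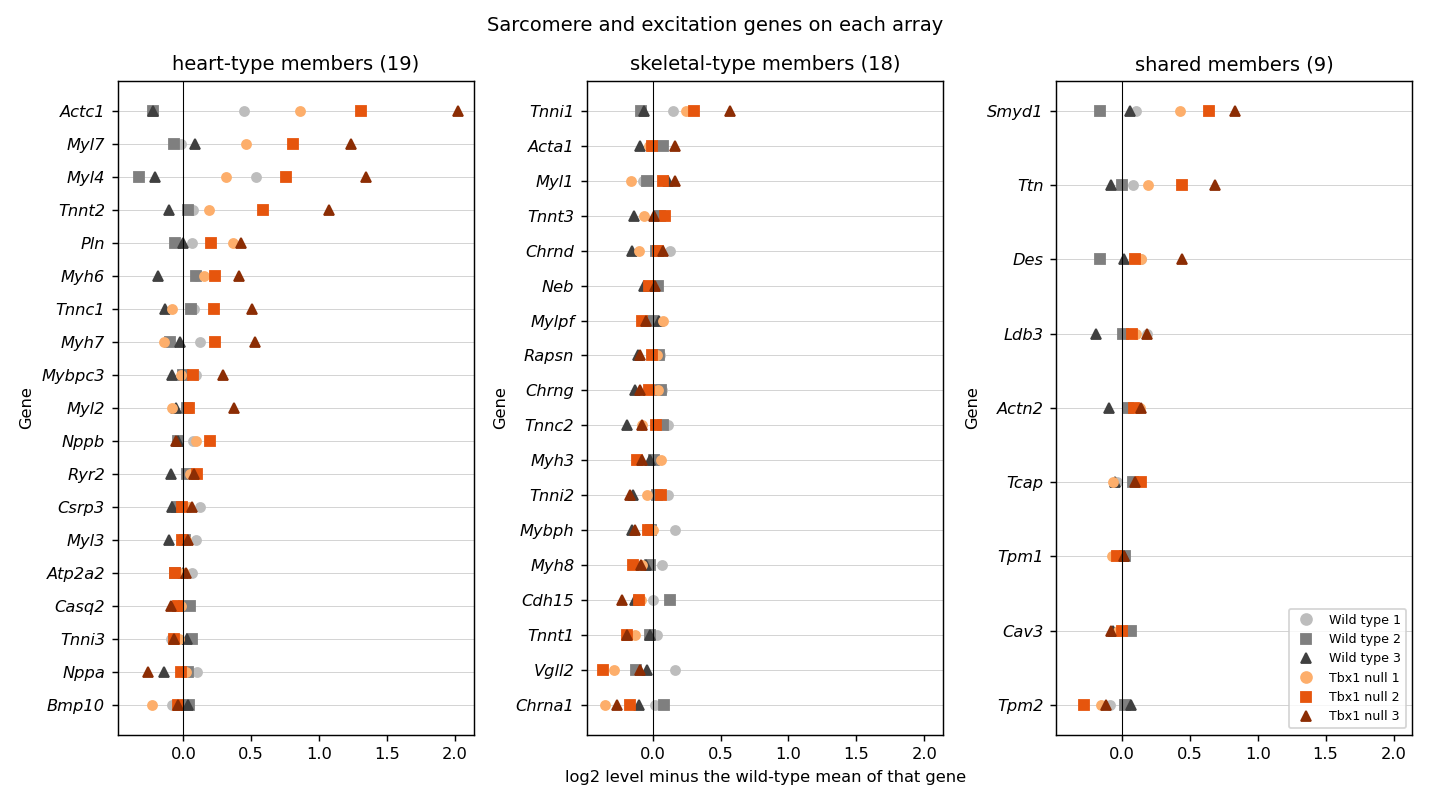
Each row is 1 gene, and each point is 1 array, placed at its log2 level minus the wild-type mean of that gene (grey, wild type; orange to brown, Tbx1 null). In the heart-type panel the Tbx1 null points of Actc1, Myl7, Myl4 and Tnnt2 fan out to the right with replicate 3 outermost, while most skeletal-type genes stay close to 0.

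Setting the classes against each other, the mean level of the heart-type members was 8.12, 7.99 and 7.95 on the wild-type replicates and 8.12, 8.26 and 8.43 on the Tbx1 null replicates. The skeletal-type mean was 7.82, 7.78 and 7.68 against 7.71, 7.73 and 7.73. The difference between the 2 classes was 0.29, 0.21 and 0.27 on the wild-type arrays (0.26 ± 0.04, SD, n = 3) and 0.41, 0.53 and 0.70 on the Tbx1 null arrays (0.55 ± 0.15, SD, n = 3). Every Tbx1 null array was above every wild-type array, by 0.29 on average, which was larger than either SD. Probe sets differ in brightness, so the size and sign of a class difference on 1 array mean nothing by themselves and only the arrays are compared. No p is given for these scores, since the genes were chosen with results known. The median change was 0.11 for heart-type, -0.03 for skeletal-type and 0.12 for shared members, beside -0.01 for all genes. Leaving out Tbx1 null replicate 3 gave a heart-type median of 0.04, and leaving out Tbx1 null replicate 1 gave 0.18. The skeletal-type median was 0.01 without wild-type replicate 1, so its sign depends on that array. With the isoforms that both muscles use set aside, 12 heart-type and 14 skeletal-type genes gave a difference of -0.51, -0.48 and -0.42 in wild type and -0.33, -0.24 and -0.10 in Tbx1 null. The 12 still included Myl7, Tnnt2, Pln and Myh6.

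**Figure D3:**
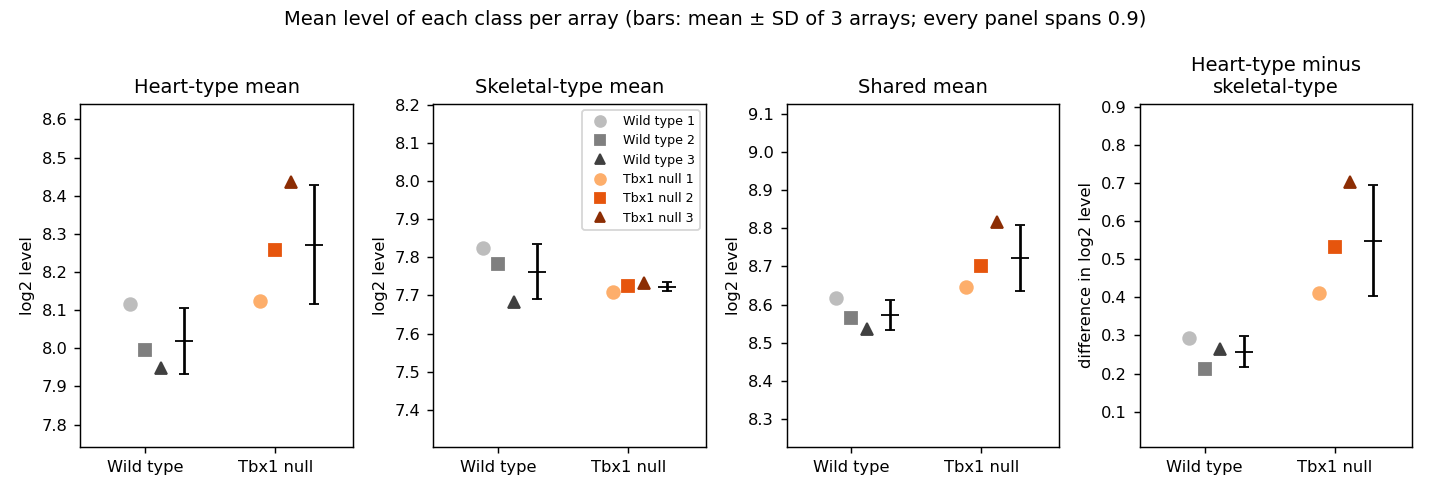
Points are the mean log2 level of each class on each array, and bars the mean ± SD of 3 arrays; each panel spans the same 0.9. The heart-type minus skeletal-type difference lies between 0.21 and 0.29 in wild type and between 0.41 and 0.70 in Tbx1 null, with Tbx1 null replicate 3 highest.

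By arrays without overlap, 5 of 19 heart-type, 1 of 18 skeletal-type and 3 of 9 shared members had all Tbx1 null arrays above all wild-type arrays, as did 8.36% of all genes. The reverse held for 0, 3 and 1, and for 7.06% of all genes. The Tbx1 null arrays differed among themselves. Replicate 3 was the highest Tbx1 null array for 14 of 19 heart-type, 7 of 9 shared and 6 of 18 skeletal-type members, and for 38.4% of all genes. The same held for 13 of 15 endothelium and endocardium markers and 8 of 10 smooth muscle markers. Replicate 1 was the lowest Tbx1 null array for 11 of 19 heart-type members and for 11 of 15 endothelium and endocardium markers, against 30.2% of all genes. The part of such cells in the order of the arrays was not tested. Replicate 3 was the highest of all 6 arrays for 10 of 19 heart-type members, against 20.4% of all genes. Replicate 3 exceeded replicate 1 by 1.16 in Actc1, 1.03 in Myl4, 0.88 in Tnnt2, 0.77 in Myl7 and 0.67 in Myh7. The pooled SD within a genotype had a median of 0.13 over heart-type and 0.10 over skeletal-type members. In wild type, replicate 1 was the highest array for Actc1 and Myl4, by 0.67 over the lowest in Actc1 and 0.86 in Myl4. Counts at an unadjusted p under 0.05 depended on single arrays: 4 heart-type members were higher without Tbx1 null replicate 3 or without wild-type replicate 3, and 8 without Tbx1 null replicate 1. The 3 lower skeletal-type members became 6 without wild-type replicate 3. In Actc1 the change was 1.09 without Tbx1 null replicate 3.

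**Figure D4:**
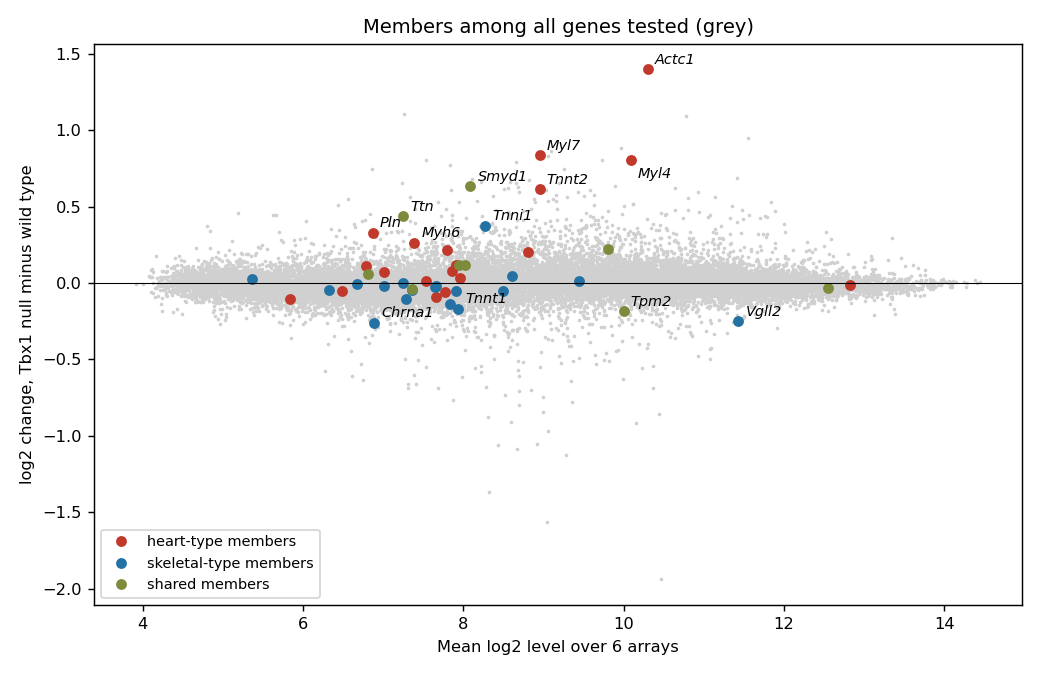
Each grey point is 1 of 19938 genes, at its mean log2 level over 6 arrays and its log2 change (Tbx1 null minus wild type); members are coloured by class and named where the unadjusted p is under 0.05. Actc1 is the topmost point of the plot, and most members lie to the left of it at lower levels with changes near 0.

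Other genes of the 2 muscle programmes, listed apart from the members, had medians near that of all genes. Of 27 other heart muscle genes measured, 7 had higher values and 1 had a lower value at an unadjusted p under 0.05. By that p, 5.5% of all genes were higher and 3.94% lower. None of the 27 passed a limma adjusted p of 0.05. Their median change was 0.01. Popdc2, a membrane protein of the heart, was at 9.41, 9.03 and 8.98 in wild type and at 9.45, 9.73 and 10.01 in Tbx1 null (change 0.59). Nexn and Xirp1, actin-binding proteins of muscle, had changes of 0.21 and 0.24, while Fabp3, the heart fatty-acid-binding protein, had -0.29. Of 33 other skeletal muscle genes, 2 were higher and 1 lower, against the same 5.5% and 3.94% of all genes, with a median of 0.01.

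At an unadjusted p under 0.05, 10 of 15 heart regulators measured had higher values and Hopx (-0.27) a lower one, against 5.5% and 3.94% of all genes. The median change of the list was 0.45. Its mean level was 9.36 to 9.54 over the wild-type arrays and 9.75 to 9.84 over the Tbx1 null arrays. Replicate 3 was the highest Tbx1 null array for 9 of the 15. Tbx2, Tbx3, Hand1 and Hand2, all among the 10, were instead lowest on replicate 3 of the Tbx1 null arrays. Tbx3 was at 11.35, 11.29 and 11.16 on Tbx1 null replicates 1, 2 and 3. Tbx20, a cardiac T-box factor, was the one of the 15 that passed over all genes (change 0.68, SE 0.08, limma adjusted p = 0.0422). Myocd, a coactivator of serum response factor at CArG boxes, had a change of 0.62 (limma adjusted p = 0.0942). Nkx2-5 and Gata4 had 0.16 and 0.17, with overlap of the genotypes. Gata5 and Gata6 had 0.80 and 0.61, without overlap. Of the 15, 3 lay below 0. Of 14 myogenic regulators, 0 were higher and 4 lower (Lhx2, Myf5, Ebf2 and Tcf21), with a mean level of 9.14 to 9.29 in wild type and 8.90 to 8.97 in Tbx1 null. Myod1 and Myog, the factors that drive skeletal differentiation, had changes of -0.12 and -0.05 from wild-type levels of 7.71 and 7.15.

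Markers of other cells that a dissected arch could hold were counted too, and none of them passed a limma adjusted p of 0.05. Counts here are at an unadjusted p under 0.05, by which 5.5% of all genes were higher and 3.94% lower. Of 10 smooth muscle markers, 4 were higher (Acta2, Cnn1, Tagln and Synpo2) and 0 lower. Acta2, Cnn1 and Tagln are also made by the early heart tube. Their mean level was 8.60 to 8.80 in wild type and 8.80 to 9.02 in Tbx1 null, highest on Tbx1 null replicate 3. Endothelium and endocardium markers had 0 of 15 higher and 2 lower, with a mean level of 10.18 to 10.21 and 10.05 to 10.23. Epicardium and outflow markers had 2 of 8 higher and 1 lower, at 8.07 to 8.11 and 8.13 to 8.14. Primitive erythroid markers had 10 of 10 lower, at 9.98 to 10.06 and 9.72 to 9.76. Neural crest mesenchyme markers had 4 of 14 higher and 0 lower, at 11.63 to 11.74 and 11.76 to 11.82, and neural markers 1 of 11 higher and 3 lower. Values near 0 do not occur on this scale, so absence of a cell type cannot be read from it. In bulk tissue more cells of a type and more RNA per cell cannot be told apart, and the part of these cell types in the values of the members was not tested.

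**Figure D5:**
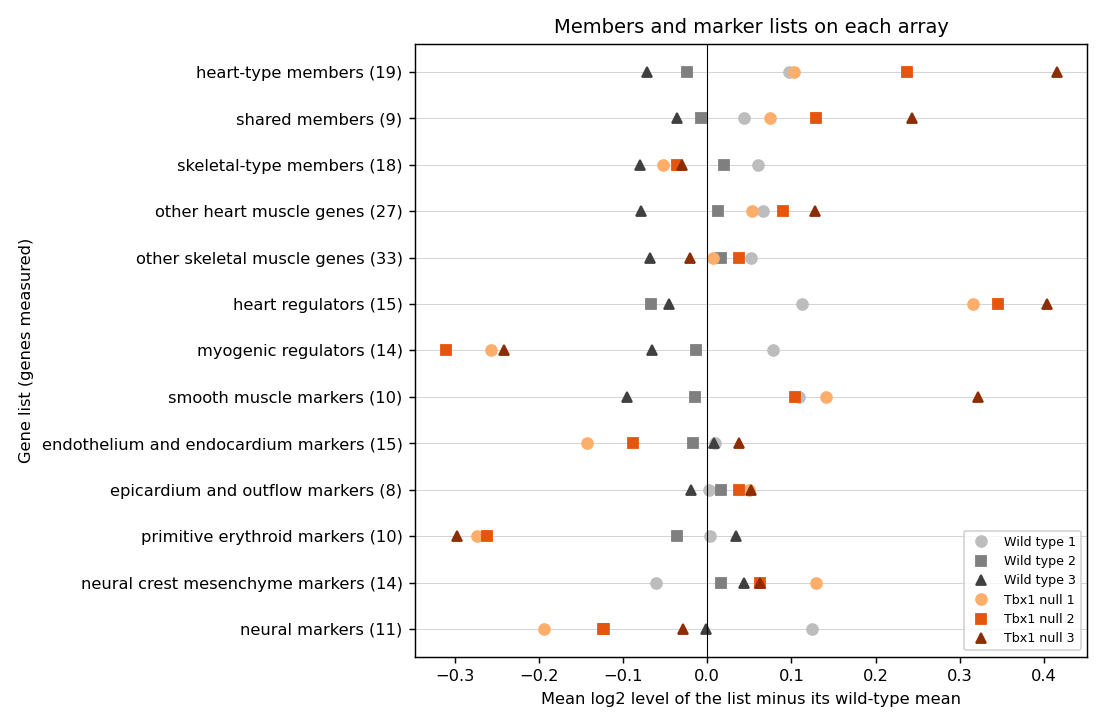
Each row is a gene list with the number of genes measured, and each point the list's mean log2 level on 1 array minus its mean over the wild-type arrays. Heart-type and shared members, other heart muscle genes, heart regulators and the smooth muscle and endothelium and endocardium markers are highest on Tbx1 null replicate 3. Epicardium and outflow markers are almost level on Tbx1 null replicates 3 (8.143) and 1 (8.141). Myogenic regulators and primitive erythroid markers are lower on all 3 Tbx1 null arrays.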

How the data were processed

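One table was used, in which the authors deposited a log2 level for every probe set and array. Per the submitters' processing notes it comes from RMA in Affymetrix Expression Console 1.1, and the notes name no summary level. RMA aligns the arrays' distributions and so hides shifts common to most genes. Of 35556 probe sets 21789 have 1 gene symbol in the platform annotation, and for every gene the one with the highest mean was kept (19938 genes). All 46 member symbols matched a RefSeq table by Entrez ID. Tests used limma 3.58.1 under R 4.3.3: lmFit and eBayes with genotype as the only term, two-sided, Benjamini-Hochberg over all genes, threshold 0.05. Tested on simulated data of 19938 genes, the fit recovered 46 of 50 genes changed 1.5-fold and 50 of 50 changed 2-fold. Recovery at the wide spread of members such as Actc1 (pooled SD 0.49), Tnnt2 (0.32) and Myl7 (0.28) was not tested. Members, classes, lists and motifs were chosen with earlier results of these data known, so no pattern here is independent support. By rule, values per array are given for members with an unadjusted p under 0.05, a change of 0.3 or more, or a span of 0.8 within a genotype; those of Myh7, Myl2 and Tnnc1 were added after their values were seen. Outside the members up to 4 genes of lowest p per list are named. Ebf2, Tcf21, Hopx, Nkx2-5, Gata4, Myod1 and Myog are named for their roles, and Tbx2 and Hand2 for their order of arrays. Gata5 and Gata6 were added beside Gata4 after their values were seen. Alternatives were a replicate block, each array left out, quantile normalisation, median centring, a filter at the first quartile, trended robust eBayes, array weights, averaged probe sets and narrower classes.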

Additional observations from a re-analysis of the deposited data

How the results depend on the processing

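The 13 members chosen by rule for values per array kept the sign of their change under every alternative run; Myh7, Myl2 and Tnnc1 were not among them. Adjusted p-values of members stayed above 0.05 except with array weights (Actc1 0.0331, Myl7 0.0413, Pln 0.0368 and Smyd1 0.0178 by limma) and, for Smyd1, with trended and robust eBayes (0.0379). These settings also raised the count of genes called from 32 to 334 and 96. The array weights were 0.51, 3.003 and 0.41 for wild type and 1.70, 1.76 and 0.53 for Tbx1 null, and with them 5 skeletal-type members were lower at an unadjusted p under 0.05 instead of 3. The block on the replicate number reduced the genes called to 6. Same-numbered arrays correlated at -0.05, 0.26 and 0.15 in their deviations. Differently numbered arrays were not compared in this way, so these values cannot decide whether the numbers pair the samples. With 1 array left out the genes called ranged from 3 to 20, the heart-type members higher from 4 to 8, the skeletal-type members lower from 2 to 6, and the heart-type median change from 0.0429 to 0.18. The difference between heart-type and skeletal-type change ranged from 0.21 to 0.36 with 1 array left out and from 0.25 to 0.35 under the other alternatives. For arrays the number limits precision: the median SE was 0.0579, but 0.29 for Actc1.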
